A study of Homo sapiens with 6 samples.

Results

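A panel of 9 transcripts that p53, the transcription factor answering DNA damage and other stress, is known to raise was followed in neural stem cells given 100 µM of the compound X5050 for 24 h. The genes were chosen by name: CDKN1A, MDM2, GDF15, BBC3, PMAIP1, TP53I3, FAS, ZMAT3 and BAX. Each was represented by the 1 probe set annotated to that symbol alone, so 9 of 19460 probe sets with a single gene symbol (18417 symbols) were members, and none had a further probe set. The cells were neural stem cells, self-renewing neural precursors, made from the human embryonic stem cell line called SA-01 and used at passage 14. From 5 h after plating on polyornithine and laminin, 3 samples were given the solvent DMSO at 0.1% and 3 were given the compound X5050, an inhibitor of the neuronal gene repressor REST by the series title, at 100 µM, and total RNA was taken after 24 h and hybridised to 1 Affymetrix array per sample. The design text names 3 independent cultures, and replicate numbers were taken to mark the culture, so that each culture gave 1 DMSO and 1 X5050 array. All cultures came from 1 cell line, and no untreated sample without solvent was analysed here. Values are log2 signals, and a change is the X5050 minus the DMSO signal of the same culture.

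Unstressed cells keep p53 protein low because MDM2, a ubiquitin ligase that is itself switched on by p53, marks p53 for destruction. When damage stabilises p53, it binds elements near its target genes and raises their transcripts, among them those that stop the cell cycle (CDKN1A, the cyclin-dependent kinase inhibitor p21) and those that start cell death through mitochondria (BBC3, PMAIP1 and BAX) or through a death receptor (FAS). Neural stem cells are known as a cell type in which this response readily leads to arrest or death. The arrays measured transcripts, so p53 protein, its activity and the number of dying cells were not measured.

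The element that p53 binds is a pair of 10-base palindromes, and a script looked for the p53 response element consensus with no spacer in the RefSeq promoter windows (GRCh38.p14, 250 bases before to 50 after each annotated start). The consensus reads alike on both strands. All 9 genes had a window, 15 windows in all, and the best match of 4 genes lay within 3 mismatches of the 20 positions. They are shown as the stretches of these windows nearest to the consensus, with the matching 20 bases in capitals, 5′ to 3′ on the plus strand. FAS at chr10:88991289-88991348 and MDM2 at chr12:68808903-68808962 had 2 mismatches, PMAIP1 at chr18:59899791-59899850 and GDF15 at chr19:18386166-18386207 had 3.
FAS: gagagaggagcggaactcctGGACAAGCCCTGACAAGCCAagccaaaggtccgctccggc
MDM2: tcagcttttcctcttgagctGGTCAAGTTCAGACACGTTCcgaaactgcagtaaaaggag
PMAIP1: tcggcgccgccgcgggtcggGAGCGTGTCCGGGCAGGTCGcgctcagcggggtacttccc
GDF15: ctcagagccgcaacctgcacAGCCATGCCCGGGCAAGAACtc
Matches with at most 2 mismatches stood in 0.649% of 35116 windows, and matches with at most 3 in 5.2%. The MDM2 match lay at positions -94 to -75 from a downstream start of that gene (-101 to -82 from a neighbouring one), while the windows at its upstream starts had 5 mismatches at best. The FAS match likewise lay before the most downstream of 3 annotated starts, at -122 to -103, the PMAIP1 match at -185 to -166 and the GDF15 match after the start, at 28 to 47. For the other 5 genes the best match had 4 or 5 mismatches, a level reached by 26% and 70.5% of all windows. A match describes letters only, and binding by p53 was not measured.

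All 9 listed neural stem cell markers, NES, SOX2 and PAX6 among them, had a DMSO signal above the median of the tested probe sets. So did 4 of 5 neuronal markers, 8 of 8 mesenchymal markers (LUM, TAGLN, POSTN and others) and both measured pluripotency markers (DPPA4 and LIN28A). Above the median were also 1 of 4 astrocyte markers, but 0 of 3 oligodendrocyte lineage markers, 0 of 4 microglia and blood markers and 0 of 3 endothelial markers. Signals of different probe sets are not on one scale, so this places the markers and gives no cell shares. The array medians lay between 5.68 and 5.75. In bulk samples such as these, fewer cells of a type and less RNA per cell cannot be told apart.

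No rise of the p53 panel was detected with X5050. In the limma fit paired by culture 0 of 9 passed an adjusted p under 0.05, and 0 of 9 had an unadjusted p under 0.05. Over all tested probe sets 97 of 19460 passed (0.498%), of which 0.19% were higher and 0.308% lower, so at that rate no call among 9 genes sets the panel apart. An unadjusted p under 0.05 was seen for 14.5% of all probe sets (7.06% higher, 7.48% lower). The changes ran from -0.15 to 0.19, with a median of -0.018 beside 0.0092 over all probe sets, and 3 genes were above 0 and 6 below. MDM2 and ZMAT3 were higher in all 3 cultures and GDF15 and BAX lower in all 3, where 18% and 17.5% of all probe sets did the same.

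**Figure D1:**
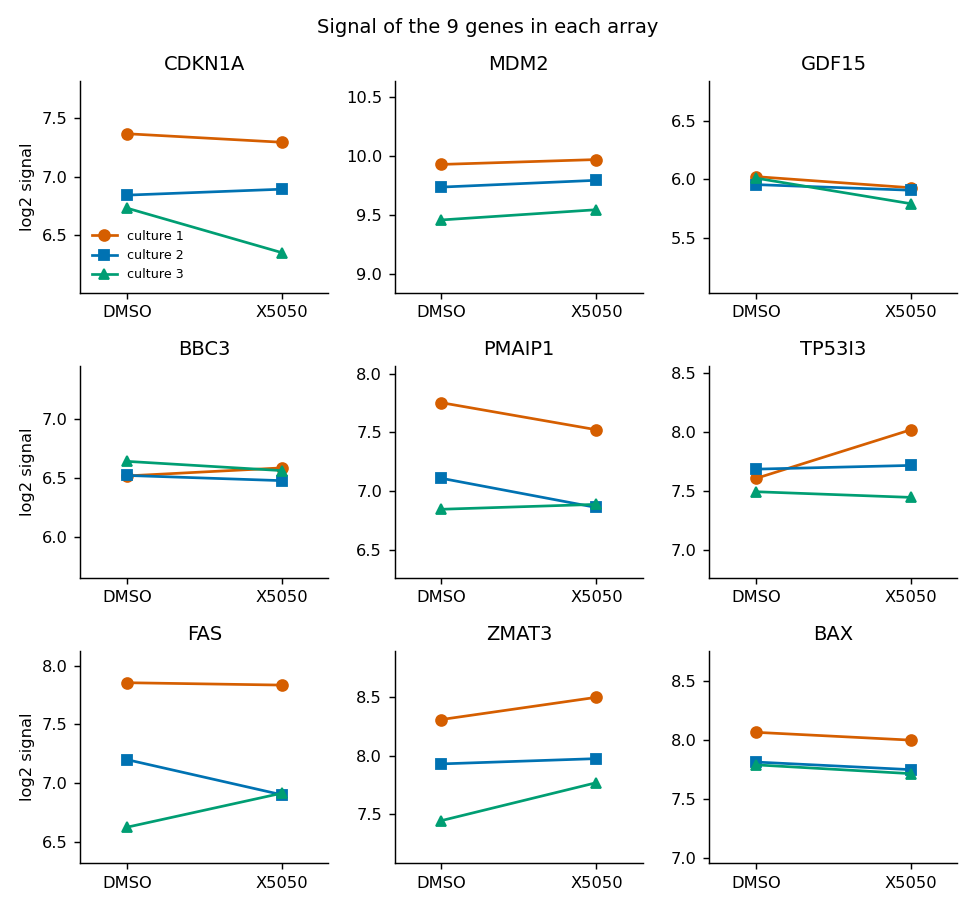
Log2 signal of each of the 9 genes (y axis, every panel spanning the same range of log2 units) with DMSO and with X5050 (x axis), 1 line per culture. Lines are nearly flat for most genes and lie apart by culture, culture 1 uppermost in CDKN1A, MDM2, PMAIP1, FAS, ZMAT3 and BAX. Culture 1 is also uppermost in GDF15, but by little.

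CDKN1A, whose product p21 holds cells before S phase, is the usual first readout of the response. Its signal was 7.36, 6.84 and 6.73 with DMSO and 7.29, 6.89 and 6.35 with X5050 in cultures 1, 2 and 3. The treatments overlapped, and culture 3 alone was clearly lower with X5050. The change was -0.13 (paired SE 0.11, 95% interval -0.38 to 0.11, adjusted p = 0.652 in limma), so the interval reached a rise of at most 1.08-fold. Without culture 3 the change was -0.011.

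MDM2, the feedback ligase, had a DMSO signal at the 93.6th percentile of the tested probe sets. It read 9.93, 9.74 and 9.46 with DMSO and 9.97, 9.80 and 9.54 with X5050. Each culture was higher with X5050, by 0.041, 0.058 and 0.087, but the groups overlapped. The mean change was 0.062 (paired SE 0.086, adjusted p = 0.823 in limma), and the upper end of its interval was a 1.20-fold rise.

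ZMAT3, an RNA-binding zinc finger protein induced by p53, had the smallest p of the panel. It read 8.31, 7.93 and 7.45 with DMSO and 8.50, 7.97 and 7.77 with X5050, higher in every culture but with overlapping groups. The change was 0.19 (paired SE 0.094, 95% interval -0.031 to 0.40, unadjusted p = 0.0838, adjusted p = 0.427 in limma), at most a 1.32-fold rise. This was the highest upper bound among the 9 genes in the paired fit.

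Among the mitochondrial death genes, PMAIP1 (NOXA) encodes a BH3-only protein that blocks MCL1. It read 7.75, 7.11 and 6.85 with DMSO and 7.52, 6.86 and 6.89 with X5050. Cultures 1 and 2 were lower with X5050 by 0.23 and 0.25 and culture 3 was higher by 0.042. The change was -0.15 (paired SE 0.097, adjusted p = 0.576 in limma).

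BBC3 (PUMA), the BH3-only protein that most broadly binds the BCL2 guardians, read 6.52, 6.52 and 6.64 with DMSO and 6.59, 6.48 and 6.56 with X5050. All 6 values lay close together, and the change was -0.018 (paired SE 0.089, adjusted p = 0.957 in limma). BAX, which forms the pore in the outer mitochondrial membrane, read 8.07, 7.81 and 7.79 with DMSO and 8.00, 7.75 and 7.72 with X5050. It was lower by 0.066, 0.065 and 0.075 in the 3 cultures, a change of -0.069 with a nearly equal size in each (SD over cultures 0.0054, paired SE 0.086, adjusted p = 0.798 in limma). The SE exceeds that SD because limma draws the spread of a gene towards that of all genes.

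FAS, the death receptor, read 7.85, 7.20 and 6.63 with DMSO and 7.83, 6.90 and 6.91 with X5050. Its cultures disagreed in direction, with differences of -0.020, -0.30 and 0.29, and the mean change was -0.0099 (paired SE 0.12, adjusted p = 0.984 in limma).

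TP53I3, a quinone oxidoreductase linked to reactive oxygen species, read 7.61, 7.68 and 7.49 with DMSO and 8.02, 7.72 and 7.44 with X5050. Culture 1 was higher with X5050 by 0.41, whereas cultures 2 and 3 differed by 0.032 and -0.048. The change was 0.13 (paired SE 0.11, adjusted p = 0.669 in limma), and it was -0.0082 without culture 1.

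GDF15, a secreted stress cytokine raised by p53 and also by the ATF4 pathway, was the only member with a DMSO signal below the median of the tested probe sets (44.5th percentile). It read 6.02, 5.96 and 6.01 with DMSO and 5.93, 5.91 and 5.79 with X5050. It was also the 1 member of 9 whose X5050 values lay wholly apart from the DMSO values, on the lower side. Such separation was seen for 14.9% of all probe sets, 7.51% above and 7.41% below. The change was -0.12 (paired SE 0.089, adjusted p = 0.622 in limma), with an upper bound of a 1.06-fold rise.

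A 2-fold rise was outside the 95% interval of all 9 genes in the paired fit and in the fit without the replicate block, as it was for 99.8% and 99.0% of all probe sets. The highest upper bound was 1.32-fold when paired and 1.74-fold, for FAS, without the block. Without the block adjusted p ran from 0.743 to 0.997 in limma, and 0 of 9 members and 0 of 19460 probe sets (0%) passed. The intervals are per gene and not widened for 9 genes.

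**Figure D2:**
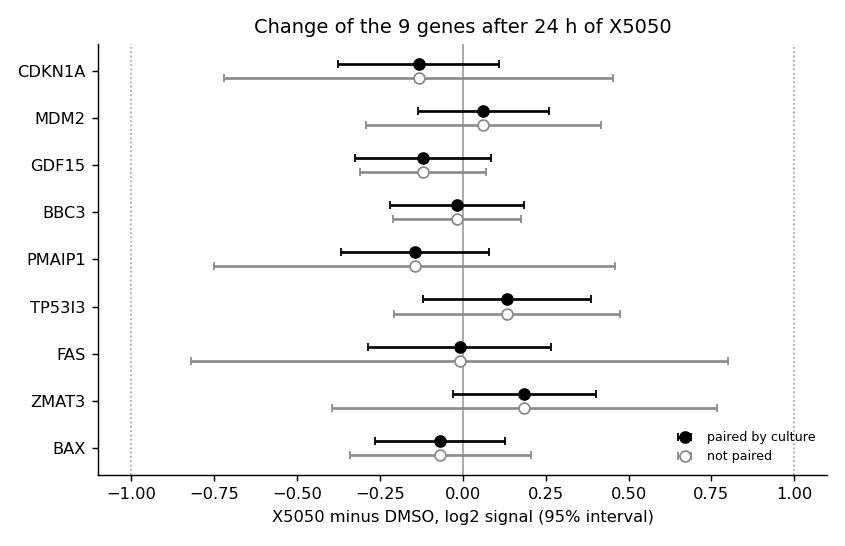
Change of each of the 9 genes (x axis, X5050 minus DMSO in log2 signal) with its 95% interval from limma, paired by culture (filled) and not paired (open), over 3 cultures. Dotted lines mark a 2-fold change in either direction, and no interval reaches them.

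The range of the means of the 3 cultures had a median of 0.45 over the 9 genes, against 0.18 over all probe sets. It was wider than the size of the X5050 change in 8 of 9 genes, near the 74.9% of all probe sets. FAS spanned 1.07 between the mean of culture 1 and that of culture 3 (2.11-fold), ZMAT3 0.79, CDKN1A 0.79 and PMAIP1 0.77. These ranges stood at or above the 97.4th percentile of all probe sets. GDF15 (0.074) and BBC3 (0.10) stood low by that measure, at the 13.0th and 22.2nd percentiles.

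Culture 1 was the highest both with DMSO and with X5050 in 7 of 9 genes, as in 16.6% of all probe sets. Among these 7 was GDF15, whose culture means spanned only 0.074. CDKN1A, MDM2, ZMAT3 and BAX had culture 1 highest, culture 2 next and culture 3 lowest in both treatments, as did 4.54% of all probe sets. The other 5 genes ranked the cultures differently in one treatment or both. This ranking was picked out from these values. An F test of the 3 cultures in the paired limma fit, added after these values were seen, passed 4 of 9 genes against 2.93% of all probe sets: FAS (adjusted p = 0.0158), PMAIP1 (adjusted p = 0.0235), ZMAT3 (adjusted p = 0.0246) and CDKN1A (adjusted p = 0.0390). In all 4 culture 1 was above culture 3. Over all probe sets 2.15% passed with culture 1 above culture 3, and culture 1 was above culture 3 in 44.6%, called or not. MDM2 (difference 0.45, SE 0.11, adjusted p = 0.133 in limma), BAX, TP53I3, GDF15 and BBC3 did not pass. Without culture 1, 0 of 9 genes differed between the other cultures, without culture 3 the count was 1, and without culture 2 it was 4. Each of these fits compared 2 cultures on fewer arrays, so the counts cannot tell which gap carries the calls. The means of cultures 1, 2 and 3 were 7.84, 7.05 and 6.77 for FAS and 7.64, 6.98 and 6.87 for PMAIP1. They were 8.40, 7.95 and 7.61 for ZMAT3 and 7.33, 6.87 and 6.54 for CDKN1A. A culture was represented by 2 arrays of different treatment, and handling that the arrays of a culture share cannot be told apart from the culture.

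Among other p53 targets culture 1 was again often the highest. Of the 30 measured genes of a list of 34 further targets, culture 1 was the highest in both treatments for 23, and 15 ranked culture 1, then 2, then 3 in both. Over all probe sets the shares were 16.6% and 4.54%. In the F test 6 of the 30 passed in limma, all with culture 1 above culture 3. They were THBS1, a secreted matrix protein (culture 1 minus culture 3 2.29, SE 0.23), PLK2, a stress-induced kinase (1.04, SE 0.17), RRM2B, the p53-induced ribonucleotide reductase subunit (0.89, SE 0.12), TIGAR, a regulator of glycolysis (0.78, SE 0.13), EDA2R, a receptor of the TNF family (0.77, SE 0.12), and SPATA18, which acts in mitochondrial quality control (0.53, SE 0.12). RRM2B read 7.81, 7.18 and 6.77 with DMSO and 7.84, 7.17 and 7.09 with X5050, so it was high in culture 1 under either treatment. In the other lists 2 of 16 ATF4 and CHOP targets passed, 1 of 13 death receptor genes and 1 of 10 genes of other forms of cell death. So did 1 of 4 astrocyte markers, 1 of 3 endothelial markers and 1 of 5 neuronal markers, beside 2.93% of all probe sets. Of these only the neuronal marker did not have culture 1 above culture 3. Among DNA damage and repair genes 0 of 23 passed, and 0 of 17 regulators of p53. Culture 1 was the highest in both treatments for 9 of the 16 ATF4 and CHOP targets too, beside 16.6% of all probe sets. Whether the lists differed from each other was not tested.

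The mesenchymal markers shared with these genes a high culture 1, but mostly not the order of the cultures. All 8 were highest in culture 1 in both treatments (16.6% of all probe sets). Of the 8, 1 ranked culture 1, then 2, then 3 in both (4.54% of all probe sets). In the F test in limma 6 passed with culture 1 above culture 3, as did 2.15% of all probe sets. Their mean signal was 8.07, 6.69 and 6.89 in cultures 1, 2 and 3, so culture 2 was the lowest, whereas the 9 panel genes averaged 7.73, 7.39 and 7.22, with culture 3 the lowest. The 9 neural stem cell markers averaged 9.23, 9.15 and 9.21, and 0 of them passed. The part of mesenchymal cells in the culture differences of the p53 targets was not tested.

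**Figure D3:**
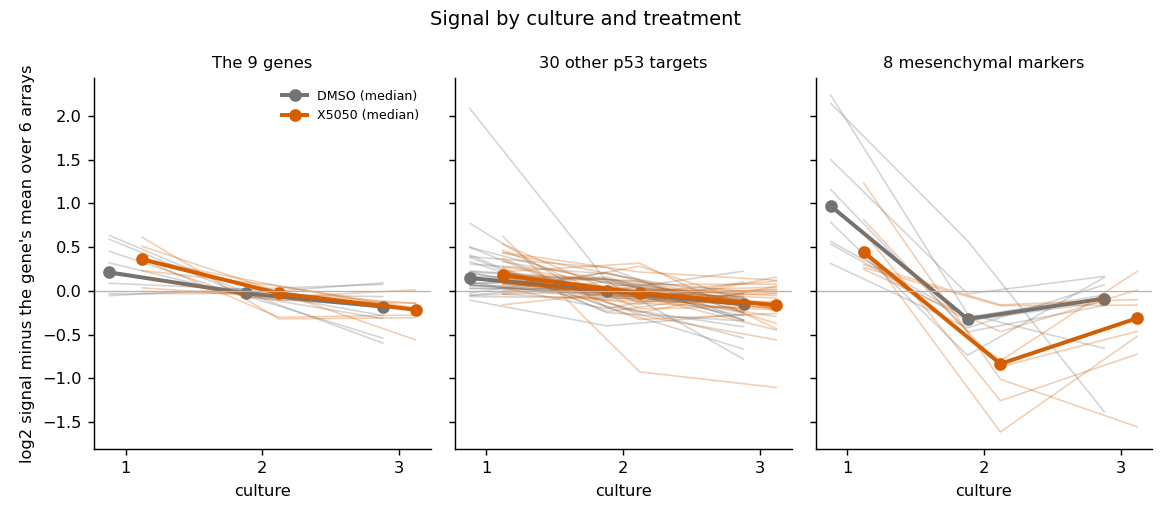
Log2 signal of each gene minus its mean over the 6 arrays (y axis) by culture (x axis), with DMSO in grey and X5050 in orange, for the 9 genes, 30 further p53 targets and 8 mesenchymal markers. Thin lines are genes and thick lines medians, and in the first and middle panels the 2 treatments run together while culture 1 stands above culture 3.

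The remaining genes of the pathway gave 0 calls with X5050. In 11 lists (171 genes, 154 measured) 0 genes passed in the paired limma fit, beside 0.498% of all probe sets. Over all probe sets 52.7% were above 0. Among the 30 further p53 targets 18 were above 0 and 12 below, with a median of 0.033 (0.020 without culture 2, 0.010 without culture 3 and 0.014 with arrays centred). An unadjusted p under 0.05 was seen for 1 on the higher side and 3 on the lower, where 7.06% and 7.48% of all probe sets did the same.

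ANKRA2, an ankyrin repeat protein, had the smallest p of the further targets. It read 7.52, 7.23 and 7.36 with DMSO and 8.07, 7.84 and 7.75 with X5050, wholly above, a 1.43-fold difference (log2 0.52, paired SE 0.092, adjusted p = 0.0602 in limma). THBS1 read 9.32, 7.35 and 6.46 with DMSO and 7.87, 6.32 and 6.14 with X5050, lower in each culture (log2 -0.94, paired SE 0.18, adjusted p = 0.0758 in limma). THBS1 is also a matrix gene. LUM, a mesenchymal marker, passed the adjusted threshold on the lower side (log2 -1.09). With X5050, 7 of the 8 mesenchymal markers stood below 0, with a median of -0.24. The part of those cells was not tested. EDA2R stood at -0.31 (paired SE 0.098).

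The regulators of p53 had a median of 0.064 (0.033 without culture 1), with 11 of 17 above 0. MDM4, the MDM2 relative that masks the transactivation domain of p53, stood at -0.063 (paired SE 0.090). The 3 genes with the smallest p were the ubiquitin ligase HUWE1 (0.27, paired SE 0.092), the acetyltransferase EP300 (0.26, paired SE 0.100) and the damage kinase ATR (0.23, paired SE 0.10), none past the threshold.

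Of the 6 measured genes named as CDK inhibitors, 5 were below 0, with a median of -0.019. Of these 5, CDKN2A (-0.022), CDKN2D (-0.015) and CDKN2B (-0.00705) stood close to 0. CDKN1C (p57) stood at 0.23 (paired SE 0.090), CDKN3 at -0.16 (paired SE 0.13) and CDKN1B (p27) at -0.052 (paired SE 0.11). Of the cell cycle genes known to be lowered through p21 and the DREAM complex, 16 of 20 were below 0, with a median of -0.19 (-0.10 without culture 2), and for 9 of them the X5050 values lay wholly below the DMSO values, where 7.41% of all probe sets did. None passed. PLK1, a mitotic kinase, stood at -0.63 (paired SE 0.11, adjusted p = 0.0603 in limma), BIRC5, a mitotic protein and caspase inhibitor, at -0.43 (paired SE 0.086) and CDC20, an activator of the anaphase ligase, at -0.36 (paired SE 0.088). Beside these values the neural stem cell marker LIX1 fell with X5050 (-1.38, paired SE 0.15, adjusted p = 0.0177 in limma), and NES stood at -0.42 (paired SE 0.099). LIX1, like the markers SNAP25 and LUM, belongs to a list chosen with earlier results of these data known. Of the 9 neural stem cell markers 6 were below 0 and 3 above, where 52.7% of all probe sets were above. The neuronal marker SNAP25 rose (0.66, paired SE 0.087, adjusted p = 0.0328 in limma). Of the 5 measured neuronal markers, however, 3 were above 0 and 2 below, with a median of 0.024. The part of a change in cell types, or of p21, in the lower cell cycle genes was not tested.

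**Figure D4:**
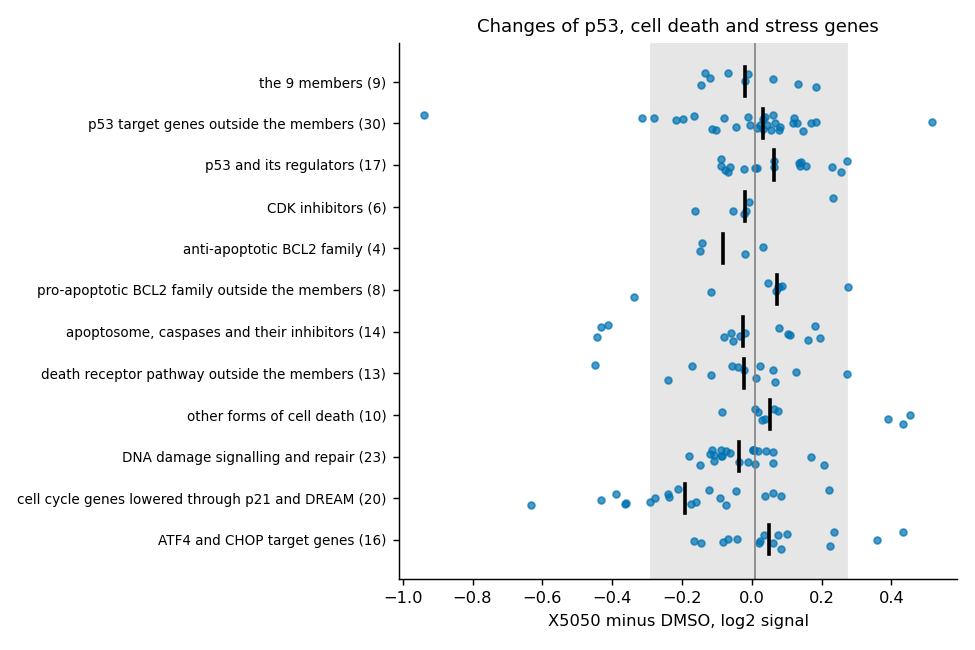
Change of each gene (x axis, X5050 minus DMSO in log2 signal, mean of 3 cultures) in the 9-gene panel and 11 lists (number of measured genes in brackets), 1 point per gene, with a black bar at the list median. The grey band holds the middle of all 19460 probe sets, from -0.29 (5th percentile) to 0.27 (95th percentile), and only the DREAM list has its median beyond -0.1.

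The cell death machinery outside the panel also gave 0 calls. Of the guardians against BAX, MCL1 stood at -0.14 (paired SE 0.11), BCL2L1 at -0.15 (paired SE 0.12) and BCL2A1 at 0.033 (paired SE 0.14). Among 8 further pro-apoptotic relatives BCL2L11 (BIM), a BH3-only protein, read 5.76, 5.97 and 6.17 with DMSO and 6.32, 6.22 and 6.18 with X5050. These values were wholly above, but in culture 3 by 0.0092 only (change 0.27, paired SE 0.12, adjusted p = 0.328 in limma). BIK stood at -0.34 (paired SE 0.11) and BAK1, the pore-forming relative of BAX, at -0.12 (paired SE 0.097).

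Downstream of the mitochondrial pore, CYCS, which encodes cytochrome c, read 9.78, 9.53 and 9.67 with DMSO and 9.35, 9.07 and 9.33 with X5050, a 1.33-fold lower signal (log2 -0.41, paired SE 0.088, adjusted p = 0.0915 in limma). DIABLO, the released antagonist of the caspase inhibitors, was 1.36-fold lower (log2 -0.44, paired SE 0.090, adjusted p = 0.0827 in limma). Both lay wholly below DMSO without passing the threshold, as did BIRC5. On the death receptor side the decoy receptor TNFRSF10D stood at -0.45 (paired SE 0.14), the initiator caspase CASP8 at -0.24 (paired SE 0.090) and the adaptor TRADD at 0.27 (paired SE 0.14).

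Among 10 genes of other forms of death 9 were above 0, where 52.7% of all probe sets were, with a median of 0.052. Of these 9, MLKL (0.029), GPX4 (0.018) and GSDMD (0.0084) stood close to 0. BNIP3, a mitochondrial receptor for mitophagy, read 9.53, 9.37 and 9.39 with DMSO and 9.92, 9.76 and 9.96 with X5050, 1.37-fold higher (log2 0.45, paired SE 0.090, adjusted p = 0.0770 in limma), and the gasdermin GSDME stood at 0.39 (paired SE 0.096, adjusted p = 0.119 in limma). SLC7A11, the cystine transporter, read 8.86, 7.63 and 6.55 with DMSO and 8.87, 7.64 and 7.83 with X5050, so its change of 0.43 (paired SE 0.22) came from culture 3. Of 23 DNA damage and repair genes 10 were above 0 and 13 below (median -0.037, but 0.012 without culture 2 and 0.0045 after quantile normalization), and 0 had an unadjusted p under 0.05, where 14.5% of all probe sets did. RAD50, of the double-strand break sensor, stood at 0.21 (paired SE 0.092), RPA2, of the single-strand binding complex, at -0.18 (paired SE 0.095) and BRCA1 at 0.17 (paired SE 0.11).

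GDF15 and PMAIP1 can also be raised by ATF4 and CHOP. Of the 16 genes of that list 11 were above 0, with a median of 0.049 (-0.034 without culture 3), and 3 had all X5050 values above all DMSO values (7.51% of all probe sets): the asparagine synthetase ASNS (0.36, paired SE 0.091, adjusted p = 0.127 in limma), CEBPB (0.24, paired SE 0.090) and DDIT3, which encodes CHOP (0.23, paired SE 0.095). GDF15 and PMAIP1 stood on the other side of 0, at -0.12 and -0.15.

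By Pearson r over the 6 arrays, among 1641 probe sets with an SD of at least 0.3, the profile of CDKN1A was most like those of SULF2 (0.963), KCNIP4 (0.952) and GABRQ (0.951). That of MDM2 was most like SPP1 (0.987), ASCC3 (0.979) and LRIG3 (0.978), among 1642. The 6 arrays come from 3 cultures and are not independent, and what the like profiles share was not tested.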

How the data were processed

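The authors deposited log2 signals, 1 value per probe set and array. RMA and Partek appear in the submitters' processing notes; neither their settings nor a genome build was given in the sources used. RMA narrows changes of dim probe sets. Of 33297 probe sets, 19460 had 1 gene symbol in the platform annotation and were tested, 1754 had several and 12083 none; 19429 matched a RefSeq gene (GRCh38.p14) by Entrez identifier. The treatments were set against each other in limma 3.58.1 (R 4.3.3, lmFit and eBayes, two-sided), with the replicate number as a block and Benjamini-Hochberg adjustment over all tested probe sets; the fit was tested on simulated data. Same-numbered arrays deviated from their group means together (r 0.365, 0.297 and 0.255; other pairs -0.236 to -0.0520), and the design text gives 3 cultures, so the numbers were taken as pairs. With 3 pairs an exact sign-flip test cannot go below 0.25. The fit without the block, each culture left out, 2 rescalings, a filter on dim probe sets, another variance model and the median over a gene's probe sets were alternatives.

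The members and lists were chosen with earlier results of these data known. Named were the members, MDM4, and the 3 genes with the smallest paired p in each list; genes of the lists without a value were not analysed here, and SPP1 and the like come from the likeness rule. RRM2B, PLK2, TIGAR and SPATA18 were named after their culture values were seen. CDK1, CDKN2A, CDKN2B and CDKN2D were named after their changes were seen. Plots used Python 3.11.15 and matplotlib 3.10.9.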

Additional observations from a re-analysis of the deposited data

How the results depend on the processing

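In the paired fit 0 of the 9 genes passed under each alternative run, and under the fit with no replicate block. The median change of the 9 genes was -0.037 once arrays were centred on their medians and ran from -0.061 to -0.0052 with a culture left out. Direction turned for FAS after quantile normalization (0.012). With a culture left out it turned for FAS (-0.16 to 0.13), TP53I3 (-0.0082 to 0.22) and BBC3 (-0.061 to 0.012), once each. The other 76 values of single genes under an alternative kept their sign and their side of the threshold, but many of these signs could not turn. The change of a gene is the same by construction with no replicate block, without dim probe sets and with trended, robust variances. The median over a gene's probe sets repeated the paired fit, since no member had a further probe set. Only leaving a culture out, centring and quantile normalization could turn a sign. Over all probe sets the numbers higher and lower were 37 and 60, and 0 and 0 with no replicate block, 18 and 33 after quantile normalization, 120 and 132 without dim probe sets and 118 and 147 with trended, robust variances. With a culture left out they ran from 0 to 113 and from 0 to 233. The cause of these shifts was not tested. Probe sets that differed between cultures numbered 570, and from 265 to 688 with a culture left out, while the count among the 9 genes was 4, and ran from 0 to 4. With trended, robust variances these counts were 735 and 5. Dim probe sets leave out GDF15. Precision is limited by 3 arrays per treatment, and no measure of signal over background was used.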
